A study of Mus musculus with 4 samples.

Results

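Platelet-derived growth factor (PDGF) and vascular endothelial growth factor (VEGF) form one family of secreted, disulfide-linked dimers. The genes described here are the PDGF ligands Pdgfa, Pdgfb, Pdgfc and Pdgfd, the PDGF receptors Pdgfra and Pdgfrb, and the VEGF ligands Vegfa, Vegfb, Vegfc and Vegfd (also called Figf). They were chosen by family and matched by symbol, with earlier results of these data known, and all 10 were found among the 47069 Ensembl mouse genes of the expression table. RNA was sequenced from mBMSCs, the adherent stromal cells grown from the tibia and femur marrow of wild-type C57BL/6J mice aged 8 weeks, at passage 1. The GA plus DEX group (2 libraries) was kept for 3 d with 50 μM ginkgolic acid (GA), an inhibitor of sumoylation, and 1 μM dexamethasone (DEX), a synthetic glucocorticoid. The DMSO plus DEX group (2 libraries) received the solvent and the same dose of DEX, so both groups carried DEX and neither was free of it. The cells were selected by adherence only. Whether the 2 libraries of one treatment represent different animals or wells is not stated, and p-values therefore measure the spread between these libraries, which may be technical.

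As background, PDGF-A and PDGF-C act mainly through the receptor PDGFRα, PDGF-D acts mainly through PDGFRβ, and PDGF-B binds both. VEGF-A drives growth of blood vessels through KDR, VEGF-B binds FLT1, and VEGF-C and VEGF-D act through FLT4 in the growth of lymphatic vessels. In bone marrow, both PDGF receptors mark stromal and perivascular cells, and cells of the osteoblast lineage are a known source of VEGF-A.

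Levels are FPKM, in which fragment counts are divided by gene length and by library size. Each gene was tested with limma on log2(FPKM + 1), and a call is an adjusted p under 0.05 over the 12174 genes whose mean was 1 FPKM or more. The log2 fold changes are on that scale, GA plus DEX over DMSO plus DEX, and they understate the change of genes at low FPKM. All 10 genes were tested, and 5 were called higher and 5 lower. Pdgfb, called higher, was under 1 FPKM in both DMSO plus DEX libraries and reached the minimum only through GA plus DEX. In the background, 46.3% of all genes tested were called higher and 11.9% lower. On the deposited scaling the count of higher calls thus lay near its background and that of lower calls above it. The median log2 fold change of all genes tested was 0.19. The 10 most abundant genes took 11.3% and 12.3% of the reads in the GA plus DEX libraries, against 21.3% and 20.2% in the DMSO plus DEX libraries. Shifting each library to a common median brought the median of all genes to -0.04 and the calls to 19.5% higher and 27.9% lower. After that shift, 4 of the 10 genes were called higher and 5 lower, the difference being Pdgfra. Both counts then lay above the shares over all genes, which was not tested. The libraries of the groups did not overlap for any of the 10 genes. Both GA plus DEX libraries lay above both DMSO plus DEX libraries in 62.5% of all genes tested, and below both in 18.3%.

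Promoter sequence was matched by symbol for 8 of the 10 genes in RefSeq (build GRCm38.p6), as the 250 bases before a transcription start. The windows of 3 genes are shown because these genes carried the largest calls in each direction: Vegfc had the largest higher call, Pdgfd the largest lower call, and Vegfb the next higher call after Vegfc on the log2(FPKM + 1) scale. In FPKM itself Pdgfb, which had no promoter entry, changed more than Vegfb. They lie at chr8:54077282-54077531 on the plus strand for Vegfc, at chr19:6987652-6987901 on the minus strand for Vegfb and at chr9:6168236-6168485 on the plus strand for Pdgfd. Capitals mark a GC box (GGGCGG, or CCGCCC on the other strand) or a TATA box (TATAAA on either strand).
Vegfc: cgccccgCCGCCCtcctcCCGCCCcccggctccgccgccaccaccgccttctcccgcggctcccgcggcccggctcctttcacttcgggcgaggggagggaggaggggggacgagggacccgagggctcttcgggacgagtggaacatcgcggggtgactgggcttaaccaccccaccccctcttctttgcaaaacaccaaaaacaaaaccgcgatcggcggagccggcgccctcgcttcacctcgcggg
Vegfb: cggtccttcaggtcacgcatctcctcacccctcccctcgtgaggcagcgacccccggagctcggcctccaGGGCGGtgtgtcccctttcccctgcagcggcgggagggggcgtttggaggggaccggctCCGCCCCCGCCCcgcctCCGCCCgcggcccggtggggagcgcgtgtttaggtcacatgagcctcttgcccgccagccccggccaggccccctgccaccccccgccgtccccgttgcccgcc
Pdgfd: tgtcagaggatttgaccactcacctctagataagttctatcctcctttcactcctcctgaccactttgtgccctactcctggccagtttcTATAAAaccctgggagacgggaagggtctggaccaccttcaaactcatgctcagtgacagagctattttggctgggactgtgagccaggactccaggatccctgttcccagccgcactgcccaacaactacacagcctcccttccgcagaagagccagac
The Vegfc window held 2 GC boxes with 71.6% G and C. The Vegfb window held 4, of which a pair abut in one run of capitals, with 76.4% G and C. The Pdgfd window held no GC box, 53.6% G and C, and a TATA box starting 160 bases before the start site. The median over all 32851 promoter windows was 52.4% G and C. A GC box occurred in 32.7% of all windows and in those of 4 of the 8 genes matched (Pdgfa, Vegfa, Vegfb and Vegfc), which include genes called in both directions. TATAAA occurred in 12.4% of all windows and in those of 2 of the 8 genes (Pdgfd and Vegfd). The core letters ACGTG of the site bound by hypoxia-inducible factors, searched on both strands, occurred in 16.6% of all windows and here only in the window of a second start listed for Vegfa. That window, at chr17:46025164-46025413 on the minus strand, lies downstream of the first Vegfa window (chr17:46032378-46032627), which held no ACGTG. The AP-1 letters TGACTCA, also on both strands, occurred in 4.5% of all windows and in none of the 8 genes. These matches describe letters and were not tested as sites.

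Among the PDGF ligands, 3 of 4 were lower with GA plus DEX and 1 was higher. Pdgfa (ENSMUSG00000025856) encodes the main ligand of PDGFRα. It had 88.2 and 99.8 FPKM in the GA plus DEX libraries, against 138 and 138 FPKM in the DMSO plus DEX libraries. Both GA plus DEX libraries were lower, and they differed more from each other than the DMSO plus DEX libraries did. The mean was 94.0 ± 8.18 FPKM in GA plus DEX and 138 ± 0.627 FPKM in DMSO plus DEX (SD, n = 2 each). Pdgfa was 1.47-fold lower (log2 fold change -0.55 ± 0.07 SE, limma adjusted p = 0.000417). Its exons share 813 bases with those of 6330403L08Rik on the opposite strand in the GRCm38 annotation. That gene stood at 2.91 and 3.76 FPKM in GA plus DEX, against 6.00 and 6.71 FPKM in DMSO plus DEX. Because no source used here gives the strand setting of the counting, reads in the shared bases cannot be told apart.

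Pdgfc (ENSMUSG00000028019) and Pdgfd (ENSMUSG00000032006) encode latent ligands that proteases activate by removing a CUB domain. Pdgfc had 10.9 and 10.7 FPKM in GA plus DEX, against 18.6 and 18.7 FPKM in DMSO plus DEX. It was 1.73-fold lower (log2 fold change -0.74 ± 0.06 SE, limma adjusted p = 4.09e-05). Both GA plus DEX libraries were lower, and the libraries of each group were nearly equal. Pdgfd had 13.9 and 14.3 FPKM in GA plus DEX, against 25.2 and 24.9 FPKM in DMSO plus DEX. Its libraries too were nearly equal within each group and lower with GA plus DEX. It was 1.78-fold lower (log2 fold change -0.79 ± 0.06 SE, limma adjusted p = 2.6e-05), the largest lower call of the 10 genes.

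Pdgfb (ENSMUSG00000000489), whose product binds both receptors and recruits pericytes to vessels, went the other way at a low level. It had 2.02 and 2.05 FPKM in GA plus DEX, against 0.651 and 0.813 FPKM in DMSO plus DEX. These values rest on 127 and 147 reads in GA plus DEX, against 59 and 61 reads in DMSO plus DEX, the fewest of any of the 10 genes. Both GA plus DEX libraries were higher, although both DMSO plus DEX libraries lay under the minimum of 1 FPKM that the mean had to reach. Pdgfb was 2.78-fold higher in FPKM (log2 fold change 0.81 ± 0.12 SE, limma adjusted p = 0.00085). The pseudocount set the size of the fitted change, which was 0.30 with a pseudocount of 5 and 1.37 with one of 0.1.

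**Figure D1:**
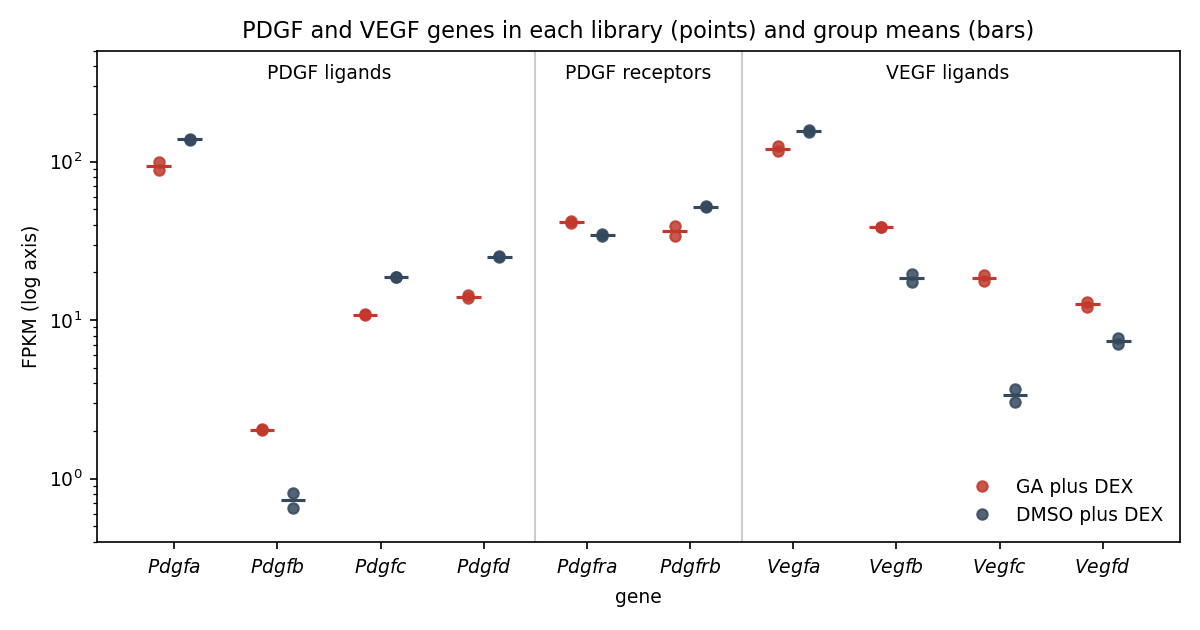
FPKM of the 10 genes in each library (points, log axis), GA plus DEX left of DMSO plus DEX for each gene, with a bar at the mean of the 2 libraries of a group. The libraries of the groups overlap in none of the 10 genes, with Vegfa at the top (116 and 125 FPKM in GA plus DEX, 153 and 158 in DMSO plus DEX) and Pdgfb at the bottom.

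The PDGF receptors differed from each other. Pdgfrb (ENSMUSG00000024620), the receptor tyrosine kinase that answers PDGF-B and PDGF-D, had 34.1 and 39.4 FPKM in GA plus DEX, against 52.5 and 51.7 FPKM in DMSO plus DEX. It was 1.42-fold lower (log2 fold change -0.50 ± 0.07 SE, limma adjusted p = 0.00102). Both GA plus DEX libraries were lower, and the second lay closer to the DMSO plus DEX libraries. Pdgfra (ENSMUSG00000029231), the receptor for PDGF-A and PDGF-C, had 40.9 and 42.0 FPKM in GA plus DEX, against 34.0 and 34.9 FPKM in DMSO plus DEX. Its call as higher (1.20-fold, log2 fold change 0.26 ± 0.05 SE, limma adjusted p = 0.00457) ended under all 4 other scalings of the libraries. There the log2 fold change was 0.03 to 0.11, with limma adjusted p of 0.12 to 0.674. The Pdgfra change was thus close to the 0.19 median of all genes tested.

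The ratio of Pdgfra to Pdgfrb within a library is not altered by a single scaling factor per library. In FPKM it was 1.20 and 1.07 in GA plus DEX, against 0.648 and 0.675 in DMSO plus DEX. Both GA plus DEX libraries had the higher ratio. The difference of the means was 0.472 (1.13 ± 0.0936 against 0.662 ± 0.0185, SD, n = 2 each, two-sided exact permutation p = 0.333). With 2 libraries against 2 this is the smallest p such a test can give. Whether the ratio stood above or below 1 depends on the gene lengths used by the authors, which no source used here gives. From reads recovered from the table it was 1.82 and 1.62 in GA plus DEX, against 0.986 and 1.03 in DMSO plus DEX.

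Among the VEGF ligands, the most abundant was lower with GA plus DEX and the other 3 were higher. Vegfa (ENSMUSG00000023951), the main ligand for growth of blood vessels, had 116 and 125 FPKM in GA plus DEX, against 153 and 158 FPKM in DMSO plus DEX. The groups were apart by more than the spread within either. Vegfa was 1.29-fold lower (log2 fold change -0.36 ± 0.06 SE, limma adjusted p = 0.00146).

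Vegfc (ENSMUSG00000031520), a ligand of FLT4 in lymphatic growth, showed the largest change of the 10 genes. It had 17.6 and 19.4 FPKM in GA plus DEX, against 3.05 and 3.66 FPKM in DMSO plus DEX. Recovered reads numbered 712 and 896 in GA plus DEX, against 178 and 177 in DMSO plus DEX. Each GA plus DEX library was several times above each DMSO plus DEX library. Vegfc was 5.51-fold higher (log2 fold change 2.16 ± 0.09 SE, limma adjusted p = 1.53e-06).

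Vegfb (ENSMUSG00000024962), a ligand of FLT1, had 38.8 and 38.9 FPKM in GA plus DEX, against 17.3 and 19.6 FPKM in DMSO plus DEX. The GA plus DEX libraries were nearly equal and both higher. Vegfb was 2.10-fold higher (log2 fold change 1.04 ± 0.07 SE, limma adjusted p = 1.82e-05). Vegfd (ENSMUSG00000031380), the other ligand of FLT4, had 12.2 and 13.0 FPKM in GA plus DEX, against 7.09 and 7.76 FPKM in DMSO plus DEX. It was 1.69-fold higher (log2 fold change 0.69 ± 0.07 SE, limma adjusted p = 0.000182), again with both GA plus DEX libraries above both others. Pgf, encoding placental growth factor, a FLT1 ligand of the same family, had 8.44 and 8.76 FPKM in GA plus DEX, against 9.44 and 10.6 FPKM in DMSO plus DEX. It missed the threshold (log2 fold change -0.20, limma adjusted p = 0.0544) and passed it after the shift to a common median (-0.43, limma adjusted p = 0.00191), under the other 3 scalings (limma adjusted p of 0.00195 to 0.00732), at a minimum of 5 FPKM (limma adjusted p = 0.0479) and without DMSO plus DEX replicate 1 (-0.28, limma adjusted p = 0.0346).

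**Figure D2:**
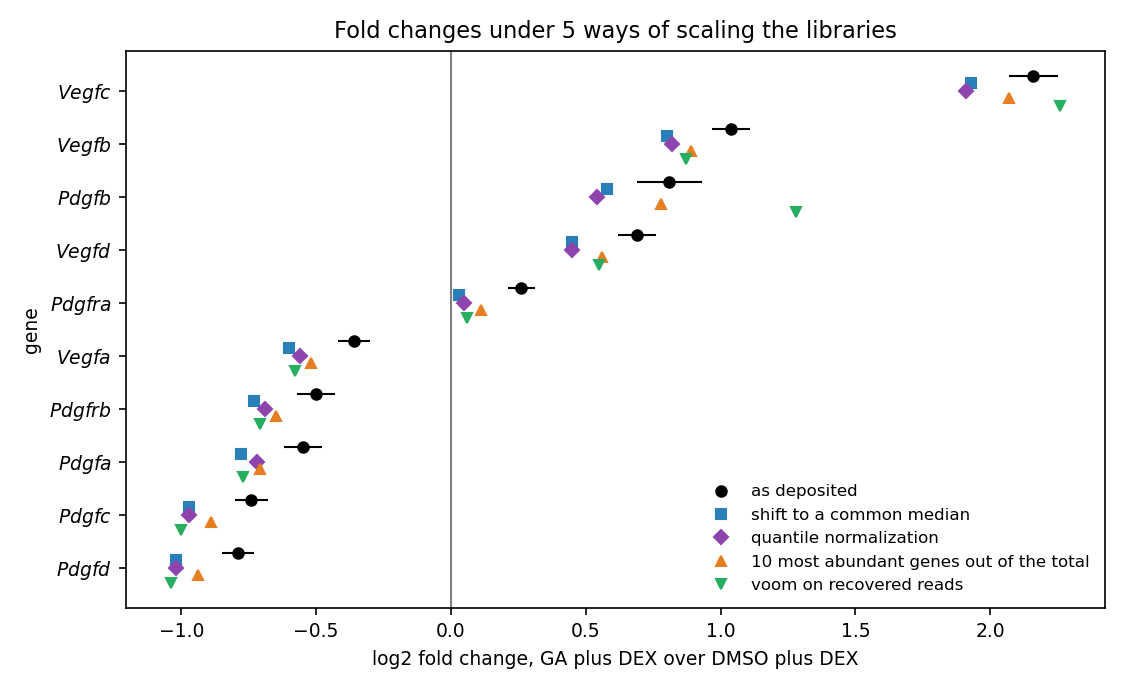
Log2 fold change (GA plus DEX over DMSO plus DEX) of each of the 10 genes under the scaling of the deposited FPKM and under 4 other scalings of the libraries (symbols), with the SE as a bar on the deposited scaling. The direction of each gene is the same under all 5, and Pdgfra, at 0.26 as deposited and 0.03 to 0.11 otherwise, is the gene that loses its call.

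The direction of all 10 genes was the same under each of the 5 scalings, and 9 kept their call. With any one library left out, the counts stayed at 5 higher and 5 lower. A model of each gene alone, without sharing the spread between genes, ended the calls of Pdgfa (adjusted p = 0.0742), Pdgfrb (0.0943), Vegfa (0.0692) and Vegfd (0.0508). In such bulk samples, fewer cells of a type and less RNA per cell cannot be told apart.

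The level order of the genes, per length, also differed between the groups. In GA plus DEX the order of mean FPKM was Vegfa, Pdgfa, Pdgfra, Vegfb, Pdgfrb, Vegfc, Pdgfd, Vegfd, Pdgfc and Pdgfb. Vegfb there lay within the range of the Pdgfrb libraries (34.1 to 39.4 FPKM), so these neighbours did not differ beyond their spread. In DMSO plus DEX the order was Vegfa, Pdgfa, Pdgfrb, Pdgfra, Pdgfd, Pdgfc, Vegfb, Vegfd, Vegfc and Pdgfb. Pdgfc there lay within the range of the Vegfb libraries (17.3 to 19.6 FPKM).

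On the deposited scaling the sum of the VEGF ligands overlapped between the groups, and the share of each ligand did not. The 4 VEGF ligands summed to 185 and 196 FPKM in GA plus DEX, against 181 and 189 FPKM in DMSO plus DEX (two-sided exact permutation p = 0.667). The sum was not compared under the other scalings, and a single scaling factor per library would alter it. Vegfa made up 63.0% and 63.7% of that sum in GA plus DEX, against 84.8% and 83.6% in DMSO plus DEX. Vegfb made up 20.99% and 19.8% in GA plus DEX, against 9.58% and 10.4% in DMSO plus DEX. The share of Vegfa was thus lower, and that of Vegfb higher, in both GA plus DEX libraries. Vegfc made up 9.49% and 9.87% in GA plus DEX, against 1.69% and 1.94% in DMSO plus DEX. Vegfd made up 6.57% and 6.61% in GA plus DEX, against 3.92% and 4.11% in DMSO plus DEX. Each of these 4 shares reached the smallest exact permutation p for 2 against 2 libraries, 0.333. The Vegfa share differed by -20.9 percentage points in FPKM and by -20.6 in recovered reads.

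For the PDGF ligands, neither the sum nor the shares overlapped between the groups. The 4 PDGF ligands summed to 115 and 127 FPKM in GA plus DEX, against 182 and 183 FPKM in DMSO plus DEX. Pdgfa made up 76.7% and 78.7% of the sum in GA plus DEX, against 75.6% and 75.7% in DMSO plus DEX. Pdgfa therefore had the largest share of the PDGF ligands in all 4 libraries. From recovered reads, not divided by length, its share was 57.6% and 60.4% in GA plus DEX, against 56.3% and 56.4% in DMSO plus DEX. The size of the share thus depends on the gene lengths used. In FPKM, Pdgfb made up 1.76% and 1.61% in GA plus DEX, against 0.357% and 0.444% in DMSO plus DEX. The exact permutation p was 0.333 for the sum and for each share. A single scaling factor per library alters the sums and leaves the shares as they are, whereas quantile normalization can alter both.

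**Figure D3:**
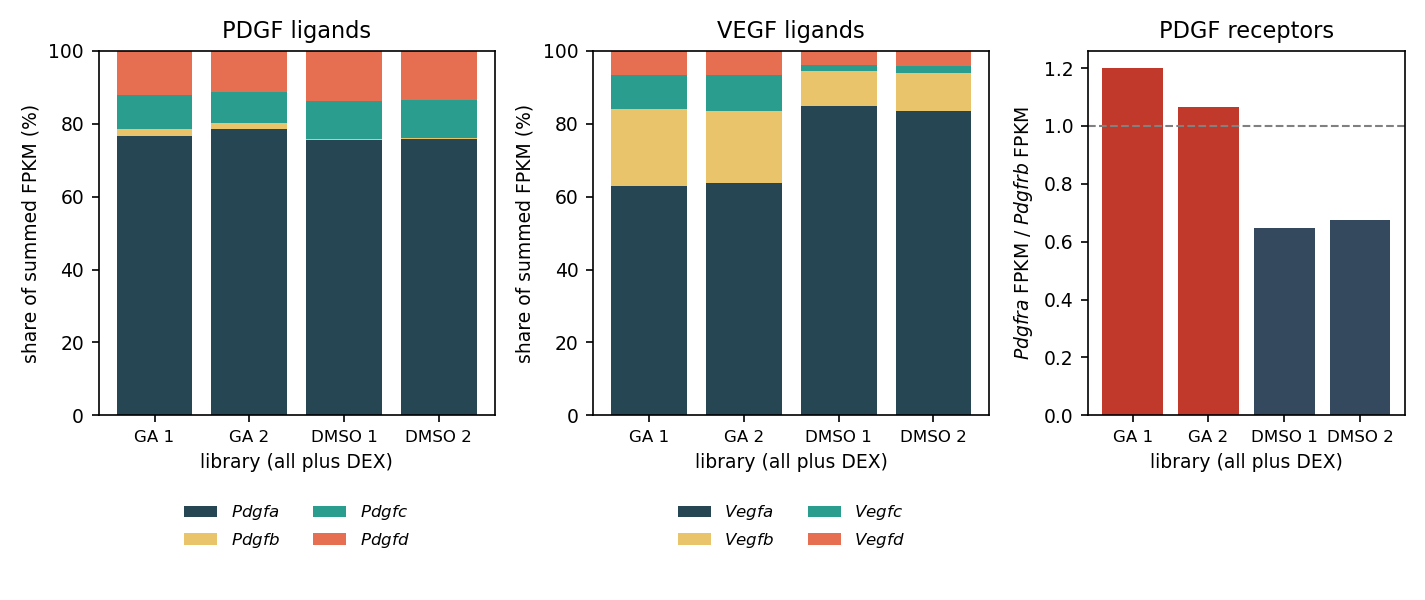
Share of each ligand in the FPKM of the 4 PDGF ligands and of the 4 VEGF ligands (stacked bars, percent), and the ratio of Pdgfra to Pdgfrb FPKM (bars, dashed line at 1), 1 bar per library, GA plus DEX left of DMSO plus DEX. Vegfa takes 63.0% and 63.7% of the VEGF ligands in GA plus DEX, against 84.8% and 83.6% in DMSO plus DEX, whereas Pdgfa takes 75.6% to 78.7% of the PDGF ligands in every library.

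The genes nearest in pattern to Vegfc and Pdgfd, which had the largest change each way, were found by the Euclidean distance between centred log2(FPKM + 1) values over the 4 libraries, among genes with a mean of at least 5 FPKM. For Vegfc they were Fmr1 (distance 0.134), which encodes an RNA-binding protein, Npr1 (0.136), a natriuretic peptide receptor, and Cluh (0.147), a binder of mRNAs for mitochondrial proteins. Fmr1 had 53.3 and 52.1 FPKM in GA plus DEX, against 9.87 and 11.2 FPKM in DMSO plus DEX. For Pdgfd they were Boc (0.0360), a co-receptor of Hedgehog signalling, Nrn1 (0.0395), neuritin, and Myo1d (0.0436), an unconventional myosin. Boc had 8.22 and 8.80 FPKM in GA plus DEX, against 15.3 and 15.2 FPKM in DMSO plus DEX. The distance is over 4 libraries only and is a description.

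The VEGF receptors were at low levels and the co-receptors were not. Flt1, Kdr and Flt4, which encode the tyrosine kinase receptors for VEGF, had mean levels under 1 FPKM and were not tested. Flt1 had 0.357 and 0.150 FPKM in GA plus DEX, against 0.0215 and 0.0911 FPKM in DMSO plus DEX. Kdr had 0.668 and 0.214 FPKM in GA plus DEX, against 0.191 and 0.338 FPKM in DMSO plus DEX. Flt4 had 0.518 and 0.306 FPKM in GA plus DEX, against 0.458 and 0.419 FPKM in DMSO plus DEX. The groups overlapped for Kdr and Flt4, and for each receptor the GA plus DEX libraries were far apart. Nrp1, a neuropilin that binds VEGF-A beside KDR, had 86.9 and 83.9 FPKM in GA plus DEX, against 34.8 and 34.7 FPKM in DMSO plus DEX. It was 2.46-fold higher (log2 fold change 1.27 ± 0.05 SE, limma adjusted p = 1.41e-06). Nrp2, the neuropilin that partners FLT4, went the other way, with 61.8 and 67.8 FPKM in GA plus DEX, against 94.5 and 92.1 FPKM in DMSO plus DEX. It was 1.44-fold lower (log2 fold change -0.52 ± 0.06 SE, limma adjusted p = 0.000337).

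Of 15 genes for proteins that process or bind PDGF and VEGF, 12 were tested, 5 of them higher and 5 lower, with a median log2 fold change of -0.02. After the shift to a common median 1 was higher and 6 were lower, and without either DMSO plus DEX library 3 were higher and 3 lower. Over all genes tested, the deposited scaling called 46.3% higher and 11.9% lower, whereas the shifted values called 19.5% higher and 27.9% lower. As deposited, the higher calls of this list lay near that share and its lower calls above it, which was not tested. Pcsk5, a proprotein convertase, had 11.5 and 11.7 FPKM in GA plus DEX, against 4.07 and 4.13 FPKM in DMSO plus DEX. It was the call as higher that held after the shift (log2 fold change 1.31, limma adjusted p = 4.7e-06). Hspg2 (perlecan), Plau (urokinase) and Lrp1 (a PDGFRβ partner), at log2 fold changes of 0.42, 0.33 and 0.27, lost their calls after it. Lrp1 also lost its call without either DMSO plus DEX library (limma adjusted p of 0.084 and 0.152). Ccn2, a matricellular protein that binds VEGF-A, was 1.96-fold lower (29.5 and 27.2 FPKM in GA plus DEX, against 55.6 and 55.5 FPKM in DMSO plus DEX). Pcsk6, a second convertase, and Adamts1, a protease that binds VEGF-A, were lower, at log2 fold changes of -0.56 and -0.55. Sparc, which binds PDGF-B, was lower at -0.62, and at -0.85 after the shift. Its call was lost without either DMSO plus DEX library, at log2 fold changes of -0.63 and -0.61. Quantile normalization put Sparc at 0.00. That method gives a gene of equal rank in every library the same value and cannot show a change of such a gene. Ccbe1, a cofactor in processing of VEGF-C, was at 0.17 (limma adjusted p = 0.107), its sign turned to -0.06 after the shift, and it passed as higher without GA plus DEX replicate 2 (limma adjusted p = 0.0321). Plat, the protease tPA that activates PDGF-C, was at -0.26 (limma adjusted p = 0.0627) and was called lower after the shift (-0.49, limma adjusted p = 0.00588).

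Of 34 genes for signalling downstream of PDGF receptors, all tested, 22 were higher and 2 lower, with a median log2 fold change of 0.25 beside 0.19 for all genes tested. After the shift, 9 were higher and 6 lower, with a median of 0.01. The background shares were 46.3% higher and 11.9% lower before the shift, and 19.5% and 27.9% after it. Among those higher under both were Pik3r1, the p85 regulatory subunit of PI3-kinase (log2 fold change 0.93), and Pik3cb, a catalytic subunit (0.67). The transcription factor gene Stat5a (0.72) was also higher under both. Fyn (-0.70) and Src (-0.28), kinases that bind activated PDGF receptors, were lower under both. Pik3r2 (-0.07) and Map2k2 (-0.01) did not pass the test, and both were called lower after the shift.

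Of 20 negative regulators of receptor tyrosine kinases, all tested, 16 were higher and 2 lower, with a median log2 fold change of 0.37. After the shift, 8 were higher and 2 lower, with a median of 0.14. Beside these counts, the background was 46.3% higher and 11.9% lower before the shift, and 19.5% and 27.9% after it. Dusp4, a phosphatase of ERK and other MAP kinases, had 11.8 and 11.6 FPKM in GA plus DEX, against 1.81 and 1.90 FPKM in DMSO plus DEX (log2 fold change 2.15 ± 0.07 SE, limma adjusted p = 5.92e-07). Lrig1, which promotes the loss of ERBB receptors, had 9.17 and 8.09 FPKM in GA plus DEX, against 1.40 and 1.65 FPKM in DMSO plus DEX (log2 fold change 1.93 ± 0.10 SE, limma adjusted p = 4.13e-06). Spry4, an inhibitor of RAS to ERK signalling, and Errfi1, an inhibitor of EGFR, were higher at log2 fold changes of 1.46 and 0.92. Socs3, a suppressor of cytokine signalling, was lower at -0.66. Socs1, of the same family, was called lower at -0.26 and lost that call without DMSO plus DEX replicate 2 and without either GA plus DEX library (limma adjusted p of 0.134, 0.051 and 0.0869). Dusp1 and Spred2, both at 0.13, did not pass the test, and their sign was negative after the shift (-0.11 and -0.10). Dusp1 passed as higher without DMSO plus DEX replicate 2 (limma adjusted p = 0.0415).

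**Figure D4:**
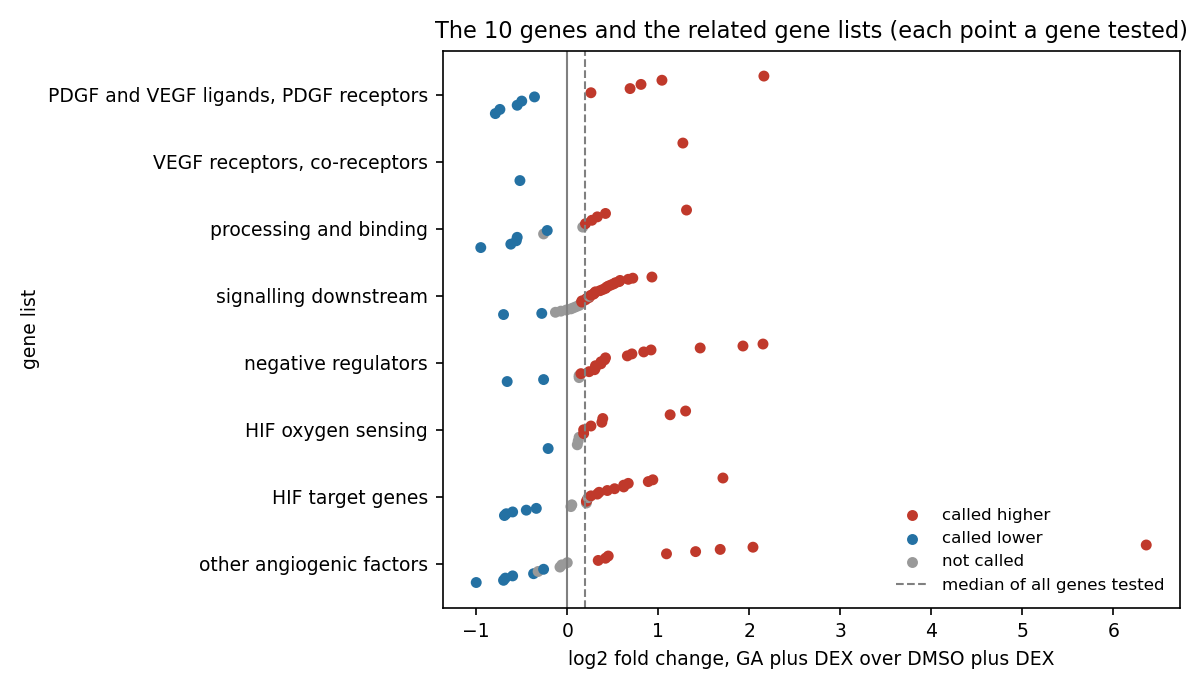
Log2 fold change (GA plus DEX over DMSO plus DEX) of the 10 genes (top row) and of each tested gene of the pathway lists (points, 1 row per list, coloured by call), with a dashed line at the median of all genes tested, 0.19. Calls go both ways in every row, most of those for downstream signalling and negative regulators lie above 0, and Angptl4 (6.36) stands far from the rest.

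Hypoxia-inducible factors (HIFs) are the best known activators of Vegfa, and genes of oxygen sensing were therefore listed. Of 13 such genes, 11 were tested, 7 higher and 1 lower, with a median log2 fold change of 0.18. After the shift, 2 were higher and 1 lower. Among all genes tested, 46.3% were called higher and 11.9% lower before the shift, and 19.5% and 27.9% after it. Epas1, which encodes HIF-2α, had 19.7 and 19.5 FPKM in GA plus DEX, against 8.09 and 8.68 FPKM in DMSO plus DEX (log2 fold change 1.13 ± 0.06 SE, limma adjusted p = 7.1e-06). Hif3a, encoding HIF-3α, was higher at 1.30. These were the calls as higher that held after the shift, and those of Crebbp, a coactivator (0.39), and Vhl, which marks HIFs for degradation (0.38), did not. Hif1a, encoding HIF-1α, had 44.0 and 42.9 FPKM in GA plus DEX, against 49.4 and 51.3 FPKM in DMSO plus DEX. It was lower (log2 fold change -0.21 ± 0.05 SE, limma adjusted p = 0.013), a call lost without DMSO plus DEX replicate 2 (limma adjusted p = 0.0895). Cited2 (0.13) and Arnt (0.11) did not pass the test, and both had a negative sign after the shift.

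Of 23 HIF target genes other than Vegfa, 22 were tested, 13 higher and 5 lower, with a median log2 fold change of 0.24. After the shift, 8 were higher and 6 lower. Background shares were 46.3% higher and 11.9% lower before the shift, and 19.5% and 27.9% after it. Without DMSO plus DEX replicate 1, the counts were 8 higher and 5 lower. The mitophagy receptors Bnip3 (log2 fold change 1.71) and Bnip3l (0.67) and the glycolytic genes Pfkfb3 (0.94) and Aldoa (0.89) were higher. Pfkfb4, which like Pfkfb3 sets the level of fructose 2,6-bisphosphate (-0.69), the collagen prolyl hydroxylase gene P4ha2 (-0.67), Adm, adrenomedullin (-0.60), and Ndrg1 (-0.45) were lower, like Vegfa. Eno1 (0.21) and Ddit4 (0.04) did not pass the test. Eno1 passed as higher without GA plus DEX replicate 2 or DMSO plus DEX replicate 2 (limma adjusted p of 0.032 and 0.0499), and Ddit4 was called lower after the shift (-0.19).

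Of 21 other angiogenic factors and inhibitors, 18 were tested, 8 higher and 6 lower, with a median log2 fold change of -0.03. After the shift, 6 were higher and 9 lower. All genes tested had shares of 46.3% higher and 11.9% lower before the shift, and 19.5% and 27.9% after it. Angptl4, a secreted inhibitor of lipoprotein lipase that also acts on vessels, had 229.6 and 208 FPKM in GA plus DEX, against 1.75 and 1.60 FPKM in DMSO plus DEX (log2 fold change 6.36 ± 0.07 SE, limma adjusted p = 4.05e-09). Cxcl12, the chemokine of the marrow niche, had 926 and 921 FPKM in GA plus DEX, against 219.8 and 228 FPKM in DMSO plus DEX (log2 fold change 2.04 ± 0.06 SE, limma adjusted p = 2.3e-07). Angpt1, the ligand that stabilises vessels through TEK (1.68), and Hgf, hepatocyte growth factor (1.41), were also higher. Hgf stood at 0.866 and 0.639 FPKM in DMSO plus DEX and reached the minimum of the test only through GA plus DEX. Thbs1, a matrix inhibitor of angiogenesis, had 1498 and 1615 FPKM in GA plus DEX, against 3105 and 3122 FPKM in DMSO plus DEX (2-fold lower, limma adjusted p = 4.25e-05). Thbs2, its relative (-0.70), and Serpinf1, the inhibitor PEDF (-0.68), were lower as well. Timp3 (-0.08) and Fgf7 (-0.06) did not pass the test, and both were called lower after the shift.

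Marker genes of several cell types moved beside these genes, and their part in the results was not tested. Their counts stand beside 46.3% of all genes tested called higher and 11.9% lower. After the shift to a common median these shares were 19.5% and 27.9%. All 12 adipocyte markers were higher, and they summed to 5922 to 6747 FPKM in GA plus DEX, against 127.8 to 132.3 FPKM in DMSO plus DEX. Retn, Cfd, Plin1 and Cidec were under 1 FPKM in both DMSO plus DEX libraries and reached the test's minimum only through GA plus DEX. No weight is therefore put on the count of 12. All 10 osteoblast markers were lower, and they summed to 31395 to 35735 FPKM in GA plus DEX, against 66767 to 70058 FPKM in DMSO plus DEX. Of 13 macrophage markers, 12 were tested and 11 were higher, with sums of 4752 to 5471 FPKM in GA plus DEX, against 3759 to 3992 FPKM in DMSO plus DEX. After the shift to a common median 7 were higher, and Lyz2, C1qa, C1qb and C1qc lost their calls. Of 12 stromal markers, 11 were tested, 6 higher and 2 lower, with sums of 1391 to 1401 FPKM in GA plus DEX, against 535 to 549 FPKM in DMSO plus DEX. After the shift 6 were higher and 5 lower, and Thy1 stayed under 1 FPKM. Of 10 markers of pericytes and mural cells, which use Pdgfrb, 8 were tested, 4 higher and 1 lower, with sums of 368 to 370.1 FPKM in GA plus DEX, against 284 to 317 FPKM in DMSO plus DEX. After the shift 4 were higher and 4 lower. Abcc9, called higher under both, had 0.423 and 0.485 FPKM in DMSO plus DEX and reached the minimum only through GA plus DEX. Mcam alone had 57.6 and 57.4 FPKM in GA plus DEX, against 1.25 and 1.61 FPKM in DMSO plus DEX. Rgs5 and Notch3 were also called higher under both. Cspg4 was called lower under both (log2 fold change -0.39, and -0.62 after the shift). Des, Anpep and Acta2 did not pass the test, and each was called lower after the shift. Endothelial markers were low: 4 of 12 reached 1 FPKM, 3 of these were higher, and the 12 summed to 10.1 to 17.2 FPKM in GA plus DEX, against 5.85 to 6.19 FPKM in DMSO plus DEX. Pecam1 had 2.19 and 1.495 FPKM in GA plus DEX, against 0.534 and 0.503 FPKM in DMSO plus DEX, and Cdh5 had 2.35 and 1.80 FPKM in GA plus DEX, against 0.743 and 0.722 FPKM in DMSO plus DEX. Both were called higher, with Egfl7, but Pecam1 and Cdh5 reached the minimum of the test only through GA plus DEX, so nothing is read from that count. The endothelial genes Kdr, Tek, Tie1, Emcn, Erg, Vwf, Cldn5 and Robo4 had means under 1 FPKM. Of 7 markers of megakaryocytes and platelets, a source of PDGF, 3 were tested, 1 higher and 1 lower. They summed to 95.1 to 107 FPKM in GA plus DEX, against 50.3 to 54.2 FPKM in DMSO plus DEX. Pf4 made up most of that sum, Gp9 was at 0 in every library, and Gp1ba and Ppbp had means under 1 FPKM.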

How the data were processed

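The authors deposited FPKM values for 47069 Ensembl mouse genes, 1 column per library. Mouse build mm9, HTSeq 0.6.1, TopHat2 2.0.12 and Bowtie2 2.2.3 appear in the submitters' processing notes, without their roles. No source used here gives the annotation, gene lengths or strand setting. Symbols were matched for 46488 genes. The 10 genes and all lists were chosen with earlier results of these data known. From each list the text names at most 4 called genes each way, by size of change, and at most 2 abundant ones not called. Some genes of these lists are not reported here by name.

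Genes with a mean of at least 1 FPKM (12174) entered limma 3.58.1 (R 4.3.3) as log2(FPKM + 1), with lmFit, eBayes with trend, two-sided p and Benjamini-Hochberg adjustment, and treatment as the only term, after a check on simulated data. Shares were compared by exact permutation over libraries. Reads recovered from the steps of the FPKM values, exact up to a common factor for genes with few reads, put the depth at 21559951 and 24611800 reads in GA plus DEX, and at 31069538 and 25717834 in DMSO plus DEX. They gave whole reads for all 23404 genes above 0, within 0.0001 of a read, or within a wider bound for the highest counts. Alternatives were other pseudocounts, minimum levels, scalings, no trend, no moderation, a replicate block, the study's thresholds and each library left out. Figures were drawn with matplotlib 3.10.9.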

Additional observations from a re-analysis of the deposited data

How the results depend on the processing

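Counts over all genes depended on the scaling of the libraries. Beside 5639 genes higher and 1454 lower, the shift to a common median gave 2380 and 3392, quantile normalization 2394 and 3273, FPKM without the 10 most abundant genes 3394 and 2374, and limma's voom on recovered reads 2931 and 3056. A model without moderation gave 2021 higher and 428 lower, and the study's thresholds (log2 fold change beyond 0.5 and p under 0.05, read here as unadjusted, which the study does not state) gave 2051 and 552. Among the 10 genes, 5 calls as lower became 2 without moderation and 3 with the study's thresholds. The pathway lists held 73 calls as higher and 21 as lower. The higher calls were 36 after the shift, 38 by quantile normalization, 47 without the 10 most abundant genes, 44 by voom, 33 without moderation and 31 with the study's thresholds, and the lower calls were 9 without moderation and 13 with those thresholds. The difference in the ratio of Pdgfra to Pdgfrb was 0.718 from recovered reads, against 0.472 in FPKM. None of the 10 genes reversed in any alternative, and Pdgfb was not tested at a minimum of 5 FPKM.

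The replicate block gave 5528 genes higher and 1433 lower, with 5 and 5 among the 10 genes. The labels do not say that a number marks a shared batch, and deviations of same-numbered libraries had a correlation of -0.025, so the samples share only a number. Pgf passed as lower under the block (limma adjusted p = 0.0477).

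Among the 10 genes, Pdgfb had the fewest reads. With 2 libraries per group, of unknown origin, the model had 2 residual degrees of freedom and a prior of 5.38, and 4 of the 10 calls rest on the spread shared between genes.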
